A study of Mus musculus with 14 samples.

Results

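Channel subunits whose mouse gene symbols begin with Cacna, Cacnb, Cacng or Kcn, or with Scn and a digit, were described in embryonic mouse skin epithelium. The count table held 125 such protein-coding genes among its 26252 genes. GENCODE M21 (GRCm38) annotates 134 protein-coding symbols of this form, and the other 9 were not analysed here. The rule for membership reads only the gene's symbol, its biotype and its presence in the table. The label of voltage-gated channels holds only in part. Inward rectifier (Kcnj) or leak (Kcnk) potassium channels, which have no canonical voltage sensor, are encoded by 26 of the 125 genes. Others encode accessory subunits or Kcnn potassium channels, which open on calcium bound to calmodulin.

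The embryos were wild type, of strain C57BL/6JOlaHsd, and gave dorsal skin epithelium at E14.5, when the first hair placodes lie within interfollicular epithelium (IFE). The placode-enriched group held 7 libraries of live epithelial cells that carried the adhesion molecule MAdCAM-1 on their surface, and the IFE group 7 libraries of cells without it. No treatment is given for either group, and 1 library pooled 3 to 4 littermates. A placode-enriched and an IFE library with the same title code formed a pair, which gave 7 pairs. Library totals lay between 23768071 and 49512872 counts, so that 1 CPM (a count scaled to library size by TMM, per mega-count) stood for 23.4 to 51.2 reads. Madcam1, which encodes the sorted protein, averaged 47.9 ± 12.1 CPM in placode-enriched against 0.561 ± 0.367 CPM in IFE cells (± SD over 7 libraries, as for every mean CPM here). These values are averages over sorted cells, so fewer cells of a type and less RNA per cell cannot be told apart.

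Voltage-gated channels open when the membrane depolarises and pass calcium, sodium or potassium. A calcium or sodium channel is built on a single large pore-forming subunit, whereas a potassium channel assembles from several. Accessory subunits set how many channels reach the surface and how they gate. They are best known from nerve and muscle, and in epithelia potassium channels also set the resting potential and the driving force for calcium entry.

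Of the 125 channel genes, 60 had enough counts to be tested and 65 did not. Among the 60, 30 were higher and 4 lower in placode-enriched than in IFE cells when edgeR's quasi-likelihood test, blocked by pair, was read at an adjusted p of 0.05, and 26 did not pass. Over all 15382 genes tested, 15.5% were higher and 15.6% lower. The median log2 fold change of placode-enriched over IFE was 0.88 over the 60 channel genes and -0.02 over all genes tested; each log2 fold change is given ± its approximate standard error. The family was put forward with such differences known, so these counts describe it and lend it no support. A gene could meet the count filter through 1 fraction alone. Of the 30 higher genes, 18 reached the filter's level of 0.298 CPM in all 7 IFE libraries. The other 12 did not, and met the filter wholly or mostly through placode-enriched libraries. The counts over tested genes are read with that limit. With no filter, 31 of 125 channel genes were higher and 5 lower, beside 9.13% and 8.62% of all 26252 genes. Of the 19 tested channel genes with a mean of 5 CPM or more over the 14 libraries, 12 were higher and 3 lower, beside 17.1% and 18.4% of the 10649 genes at that level. The 7 values of each fraction did not overlap for 22 of the 30 higher genes and for all 4 lower genes, beside 48.0% of all genes called higher and 46.5% of all called lower in the whole table.

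**Figure D1:**
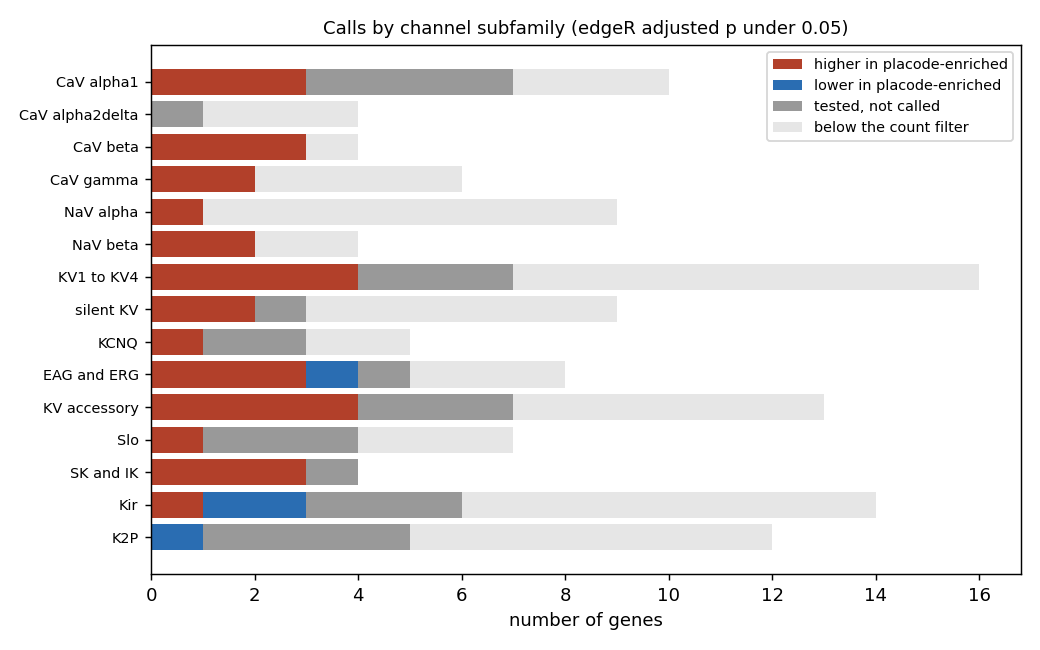
Number of channel genes in each subfamily (horizontal axis) that were higher or lower in placode-enriched cells, tested but not called, or below the count filter. Higher calls occur in every subfamily but CaV alpha2delta and K2P, and the 4 lower calls fall among the EAG and ERG, Kir and K2P genes.

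Calcium channel genes for low-voltage and R-type currents rose, whereas those of the L and P/Q types did not pass. Cacna1h (ENSMUSG00000024112, chromosome 17, 25374285 to 25433783, minus strand), a T-type pore subunit that opens near the resting potential, stood at 9.61, 14.4 and 23.8 CPM in the placode-enriched libraries (lowest, median and highest of 7), against 2.48, 3.68 and 4.06 CPM in the IFE libraries. All 7 placode-enriched values lay above all IFE values, and the log2 fold change was 2.28 ± 0.16 (adjusted p = 1.92e-07 by edgeR). Cacna1g (ENSMUSG00000020866, chromosome 11, 94408391 to 94474198, minus strand), another T-type pore subunit, stood at 8.88, 10.1 and 14.1 CPM in placode-enriched libraries, against 3.66, 4.75 and 7.54 CPM in IFE ones, again without overlap. Its log2 fold change was 1.16 ± 0.15 (adjusted p = 6.70e-05 by edgeR). Cacna1e (ENSMUSG00000004110, chromosome 1, 154390731 to 154884501, minus strand), the pore subunit of R-type channels, stood at 4.37, 6.10 and 8.92 CPM in placode-enriched libraries, against 0, 0.192 and 0.485 CPM in IFE ones. It was near the floor in IFE cells, with a library at 0, and clearly present in each placode-enriched library. The log2 fold change of Cacna1e was 4.86 ± 0.40 (adjusted p = 7.75e-07 by edgeR), higher in 7 of 7 pairs, as were Cacna1h and Cacna1g.

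Cacna1a, the P/Q-type pore subunit, stood at 12.05 ± 2.53 CPM in placode-enriched against 10.7 ± 1.22 CPM in IFE cells, a log2 fold change of 0.15 ± 0.13 (adjusted p = 0.421 by edgeR). The L-type genes Cacna1c (0.13; adjusted p = 0.706) and Cacna1d (0.16; adjusted p = 0.586) did not pass by edgeR either. Cacna1b, the N-type pore subunit, stood at 4.78 ± 1.76 CPM in placode-enriched against 2.56 ± 1.05 CPM in IFE cells and was higher in 6 of 7 pairs (edgeR adjusted p = 0.0690). It passed as higher without the pair block (edgeR adjusted p = 0.0265) and without pair 1 (edgeR adjusted p = 0.00852), and on all pairs by DESeq2 (adjusted p = 0.0186) and limma-voom (adjusted p = 0.0276). The remaining pore genes Cacna1f, Cacna1i and Cacna1s, the last the skeletal muscle L-type gene, averaged at most 0.0516 CPM in either fraction and were not tested.

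All 3 tested genes for the cytoplasmic beta subunits, which carry calcium channels to the membrane, rose, beside 15.5% of all genes tested. The limit of the count filter given above holds here too, and 1 further beta gene was not tested. Cacnb3 (ENSMUSG00000003352, chromosome 15, 98630840 to 98644529, plus strand) stood at 81.7, 108 and 129.6 CPM in placode-enriched libraries, against 53.4, 58.5 and 65.6 CPM in IFE ones. The fractions did not overlap, although the change was modest, a log2 fold change of 0.80 ± 0.09 (adjusted p = 1.14e-05 by edgeR). Cacnb1 rose by 1.02 ± 0.16 (adjusted p = 0.000273 by edgeR). Cacnb2 averaged 2.08 ± 0.934 CPM in placode-enriched against 0.120 ± 0.172 CPM in IFE cells, and its log2 fold change of 4.54 ± 0.76 (adjusted p = 0.000400 by edgeR) rests on an IFE level near the floor. Of the gamma subunits, which include partners of AMPA-type glutamate receptors, Cacng4 (ENSMUSG00000020723, chromosome 11, 107732357 to 107794557, minus strand) stood at 19.5, 21.3 and 32.0 CPM in placode-enriched libraries, against 9.45, 11.7 and 12.6 CPM in IFE ones, a log2 fold change of 1.03 ± 0.11 (adjusted p = 6.90e-06 by edgeR). Cacng7 averaged 3.45 ± 1.37 CPM in placode-enriched against 0.458 ± 0.407 CPM in IFE cells, at 3.18 ± 0.56 (adjusted p = 0.000650 by edgeR). Cacng8, a neighbour of Cacng7 on chromosome 7, had 186 reads spread over all 7 placode-enriched libraries and 0 reads in the 7 IFE libraries. Set against an assumed floor of 3 counts over the IFE group, its pooled reads were 62.2-fold higher in placode-enriched cells. That value leaves out the spread among libraries. Exons of Cacng8 overlap those of Gm23450 on the same strand. Cacng8 fell below the filter, and without a filter it was called (edgeR adjusted p = 7.51e-05). Cacna2d2, the 1 tested gene of the extracellular alpha2delta subunits, stood at 2.26 ± 0.643 CPM in placode-enriched against 1.65 ± 0.750 CPM in IFE cells and did not pass (edgeR adjusted p = 0.255).

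Sodium channel genes were mostly near the floor. Of 9 genes for pore subunits, only Scn8a, a widely expressed neuronal sodium channel, was tested, and it stood at 11.4 ± 2.22 CPM in placode-enriched against 8.44 ± 0.881 CPM in IFE cells, with a log2 fold change of 0.42 ± 0.13 (adjusted p = 0.0290 by edgeR) and higher values in 6 of 7 pairs. This call was lost without pair 2, 3, 4 or 7 (edgeR adjusted p = 0.0626, 0.0517, 0.0564 and 0.0813). The 8 others, among them the skeletal muscle gene Scn4a, averaged at most 0.461 CPM in either fraction. The beta subunits, single-pass proteins that bind sodium channel pores and also act in cell adhesion, had larger log2 fold changes. Scn2b (ENSMUSG00000070304, chromosome 9, 45117782 to 45130070, plus strand) stood at 13.3, 14.02 and 16.4 CPM in placode-enriched libraries, against 4.75, 6.91 and 7.72 CPM in IFE ones, with no overlap and a log2 fold change of 1.15 ± 0.13 (adjusted p = 1.65e-05 by edgeR). Scn4b, which lies next to it in the same orientation on chromosome 9 (45138395 to 45154152), averaged 3.63 ± 1.56 CPM in placode-enriched against 0.582 ± 0.109 CPM in IFE cells, a log2 fold change of 2.56 ± 0.28 (adjusted p = 9.88e-06 by edgeR).

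**Figure D2:**
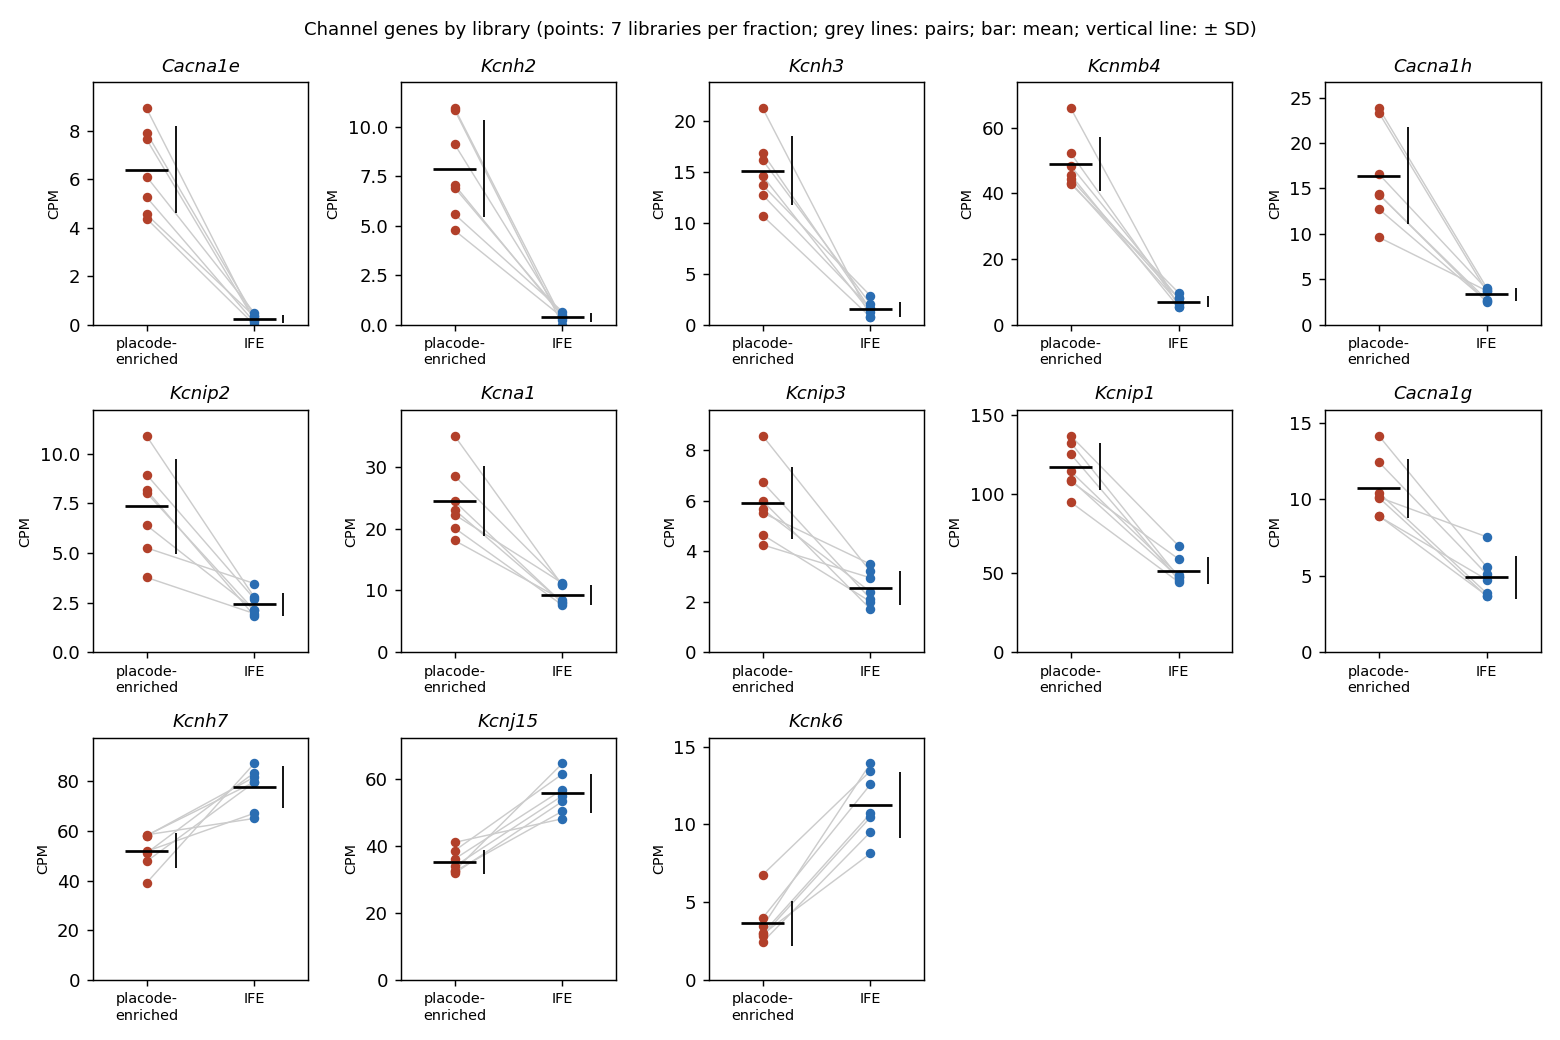
CPM (vertical axis, linear from 0) of 13 channel genes in the 7 placode-enriched libraries (left, red) and the 7 IFE libraries (right, blue); grey lines join the libraries of a pair, horizontal bars are means and vertical lines ± SD. The fractions do not overlap in any of these genes, 10 being higher and Kcnh7, Kcnj15 and Kcnk6 lower in placode-enriched cells.

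Potassium channel genes of the EAG and ERG group, whose channels repolarise heart and nerve cells, showed some of the largest differences. Kcnh2 (ENSMUSG00000038319, chromosome 5, 24319589 to 24351604, minus strand), the ERG channel of the heart, stood at 4.76, 7.06 and 10.9 CPM in placode-enriched libraries, against 0, 0.371 and 0.662 CPM in IFE ones. IFE values stayed under 1 CPM in every library, with 1 of them at 0, and the log2 fold change was 4.44 ± 0.47 (adjusted p = 7.67e-06 by edgeR). Kcnh3 (ENSMUSG00000037579, chromosome 15, 99224861 to 99242817, plus strand), an ELK channel known from forebrain neurons, stood at 10.7, 14.6 and 21.2 CPM in placode-enriched libraries, against 0.742, 1.501 and 2.83 CPM in IFE ones. The lowest placode-enriched value lay above the highest IFE value, and the log2 fold change was 3.39 ± 0.25 (adjusted p = 2.79e-07 by edgeR). Its exons overlap those of Mcrs1 on the opposite strand, and Mcrs1 averaged 31.4 ± 5.11 CPM in placode-enriched against 31.4 ± 3.56 CPM in IFE cells (log2 fold change -0.01). Kcnh1, an EAG channel, averaged 2.01 ± 0.726 CPM in placode-enriched against 0.372 ± 0.257 CPM in IFE cells, at 2.64 ± 0.47 (adjusted p = 0.000713 by edgeR).

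Kcnh7 (ENSMUSG00000059742, chromosome 2, 62693414 to 63184287, minus strand), another ERG gene, went the other way and stood at 39.1, 51.8 and 58.5 CPM in placode-enriched libraries, against 65.1, 79.7 and 87.2 CPM in IFE ones. The fractions did not overlap, and the log2 fold change was -0.58 ± 0.10 (adjusted p = 0.000801 by edgeR), lower in 7 of 7 pairs. Gca, a calcium-binding protein gene that overlaps Kcnh7 exons on the opposite strand, averaged 7.15 ± 1.73 CPM in placode-enriched against 18.4 ± 3.65 CPM in IFE cells and also fell (-1.38; edgeR adjusted p = 8.05e-06). The strand setting of the counting is not given in the sources used here, so reads of such gene pairs cannot be told apart. Kcnh6 did not pass, at 1.90 ± 0.536 CPM in placode-enriched against 1.38 ± 0.559 CPM in IFE cells.

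Genes of the Shaker, Shab, Shaw and Shal families of voltage-gated potassium channels (Kcna, Kcnb, Kcnc and Kcnd) rose in 4 of 7 tested cases. None of the 7 fell, beside 15.5% higher and 15.6% lower over all genes tested. The limit of the count filter given above holds here, and the other 9 of the 16 genes in the count table were untested. Kcna2, among these 9, was called lower without the filter (edgeR adjusted p = 0.0107). Kcna1 (ENSMUSG00000047976, chromosome 6, 126640397 to 126646384, minus strand), a delayed rectifier that opens at low voltages, stood at 18.1, 23.0 and 35.0 CPM in placode-enriched libraries, against 7.61, 8.48 and 11.2 CPM in IFE ones. No IFE library reached the lowest placode-enriched value, and the log2 fold change was 1.38 ± 0.11 (adjusted p = 5.52e-07 by edgeR). Kcnd1, an A-type channel, averaged 4.36 ± 1.38 CPM in placode-enriched against 1.96 ± 0.803 CPM in IFE cells, a log2 fold change of 1.17 ± 0.32 (adjusted p = 0.0127 by edgeR), higher in 6 of 7 pairs. Kcnb2 and Kcnc1 were called as well, at 3.51 ± 0.90 (adjusted p = 0.00814 by edgeR) and 3.21 ± 0.91 (adjusted p = 0.0146 by edgeR), from IFE means of 0.123 and 0.134 CPM, near the floor. Kcnd2, another A-type channel, averaged 1.71 ± 0.888 CPM in placode-enriched against 0.960 ± 0.586 CPM in IFE cells and did not pass (edgeR adjusted p = 0.418).

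Modifier subunits, which form no channel alone and join Kcnb pores, were scarce. Kcns3 averaged 1.16 ± 0.997 CPM in placode-enriched against 0.127 ± 0.147 CPM in IFE cells and Kcng3 0.711 ± 0.470 CPM in placode-enriched against 0.137 ± 0.137 CPM in IFE cells. Both were called, at 3.49 ± 0.71 (adjusted p = 0.00164 by edgeR) and 2.51 ± 0.73 (adjusted p = 0.0164 by edgeR), although the fractions overlapped in range. Kcng1 did not pass, at 1.08 ± 0.507 CPM in placode-enriched against 0.612 ± 0.335 CPM in IFE cells. Of the Kcnq genes, whose channels give slow, non-inactivating currents, Kcnq5 was higher in 7 of 7 pairs, but its value of 0.66 ± 0.30 (adjusted p = 0.120 by edgeR) did not pass, and Kcnq3 missed the threshold at 1.58 (edgeR adjusted p = 0.133).

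Kcnip genes encode calcium-binding KChIP proteins that bind the Kcnd pores. Kcnip1 (ENSMUSG00000053519, chromosome 11, 33629339 to 33993152, minus strand) stood at 94.9, 114 and 137 CPM in placode-enriched libraries, against 44.4, 47.5 and 67.4 CPM in IFE ones. Every placode-enriched library was above every IFE library, at a log2 fold change of 1.19 ± 0.08 (adjusted p = 1.65e-07 by edgeR). Kcnip2 (ENSMUSG00000025221, chromosome 19, 45791839 to 45816061, minus strand) stood at 3.77, 8.03 and 10.9 CPM in placode-enriched libraries, against 1.83, 2.14 and 3.46 CPM in IFE ones, and its log2 fold change was 1.56 ± 0.21 (adjusted p = 8.35e-05 by edgeR). Kcnip3 (ENSMUSG00000079056, chromosome 2, 127456498 to 127522094, minus strand), whose protein also acts as the transcriptional repressor DREAM, stood at 4.25, 5.66 and 8.57 CPM in placode-enriched libraries, against 1.71, 2.39 and 3.49 CPM in IFE ones. The fractions did not overlap for Kcnip2 or Kcnip3, and Kcnip3 changed by 1.21 ± 0.20 (adjusted p = 0.000416 by edgeR). Kcnip4 did not pass, at 1.45 ± 0.541 CPM in placode-enriched against 0.954 ± 0.260 CPM in IFE cells. Of the other accessory genes, Kcnab2, a cytoplasmic beta subunit of Shaker-type channels, was called at 1.09 ± 0.37 (adjusted p = 0.0413 by edgeR). This call was lost without pair 1, 2, 4, 6 or 7 (edgeR adjusted p = 0.0752, 0.102, 0.129, 0.0738 and 0.0524). It was also lost on all pairs without the count filter (edgeR adjusted p = 0.0503). Kcnab3 and Kcne1l did not pass, and all 4 other Kcne genes were under 1 CPM in both fractions.

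Kcnmb4, an accessory gene of calcium-activated potassium channels, had the smallest p of the 60 tested channel genes. Kcnmb4 (ENSMUSG00000054934, chromosome 10, 116417861 to 116473878, minus strand), a beta subunit of the large-conductance BK channel best known from brain, stood at 42.9, 45.6 and 65.9 CPM in placode-enriched libraries, against 5.28, 6.73 and 9.72 CPM in IFE ones. The lowest placode-enriched library exceeded the highest IFE library, and the log2 fold change was 2.81 ± 0.15 (adjusted p = 1.71e-08 by edgeR). Kcnmb4os2, an opposite-strand transcript that overlaps Kcnmb4 exons, averaged 4.72 ± 1.24 CPM in placode-enriched against 0.678 ± 0.379 CPM in IFE cells and rose too (2.93; edgeR adjusted p = 3.68e-05). Kcnma1, the pore of the same channel, averaged 6.38 ± 1.44 CPM in placode-enriched against 8.93 ± 1.92 CPM in IFE cells and did not pass, with a log2 fold change of -0.48 ± 0.19 (adjusted p = 0.0723 by edgeR) and higher values in 2 of 7 pairs. It passed as lower without the pair block (edgeR adjusted p = 0.0352) and without pair 3 or 5 (edgeR adjusted p = 0.0389 and 0.0192), and on all pairs by DESeq2 (adjusted p = 0.0448). Kcnu1, a Slo-type channel known from sperm, did not pass at 1.01 ± 0.41 (adjusted p = 0.0766 by edgeR), and was called without the pair block (edgeR adjusted p = 0.0361) and without pair 3 (edgeR adjusted p = 0.0379), and on all pairs by DESeq2 (adjusted p = 0.0321).

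Of the 4 small- and intermediate-conductance channels, which open on calcium bound to calmodulin, 3 rose, beside 15.5% of all genes tested. Kcnn4, the intermediate-conductance channel of red and immune cells and of epithelia, averaged 2.54 ± 0.616 CPM in placode-enriched against 0.333 ± 0.228 CPM in IFE cells, a log2 fold change of 3.10 ± 0.57 (adjusted p = 0.000865 by edgeR). Kcnn3 averaged 2.75 ± 0.892 CPM in placode-enriched against 0.902 ± 0.330 CPM in IFE cells, a log2 fold change of 1.62 ± 0.25 (adjusted p = 0.000231 by edgeR). Both were higher in 7 of 7 pairs with no overlap of the fractions. Kcnn2 was called at 1.41 ± 0.47 (adjusted p = 0.0362 by edgeR) in 6 of 7 pairs. The Kcnn2 call was lost without the pair block (edgeR adjusted p = 0.0765), and without each pair but the seventh (edgeR adjusted p = 0.0593 to 0.0852). On all pairs it was also lost by limma-voom (adjusted p = 0.0552). Kcnn1 did not pass, at 3.06 ± 1.06 CPM in placode-enriched against 1.99 ± 0.563 CPM in IFE cells, except without pair 2 (edgeR adjusted p = 0.0492).

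**Figure D3:**
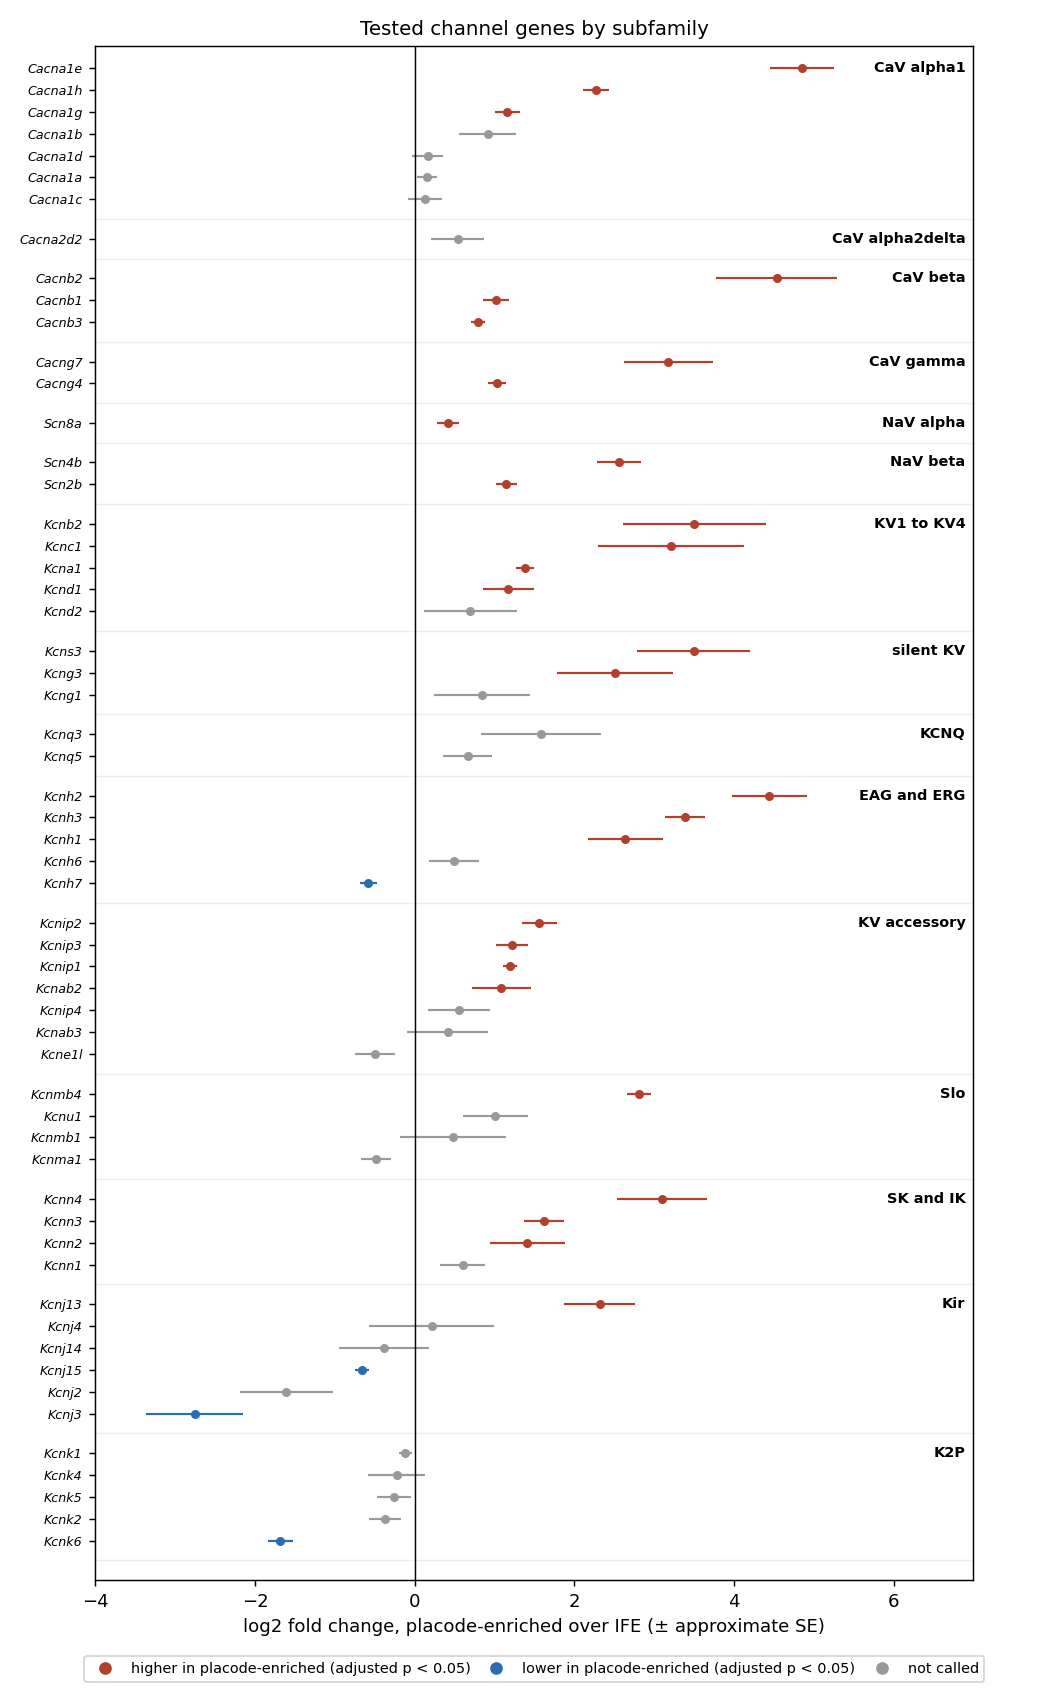
Log2 fold change of placode-enriched over IFE (horizontal axis, points) with approximate standard errors (lines) for 57 of the 60 tested channel genes, grouped by subfamily. Called higher genes lie to the right of 0, called lower genes to the left, and uncalled genes are grey; the points of the 5 tested K2P genes all lie below 0.

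Potassium channels without a voltage sensor held 3 of the 4 lower genes. Of 11 tested Kir and K2P genes 1 was higher, 3 were lower and 7 did not pass, with a median log2 fold change of -0.37. Of the 49 other tested channel genes 29 were higher, 1 was lower and 19 did not pass, with a median of 1.09. These 49 include accessory subunits and the Kcnn genes and are not all voltage-gated. Over all genes tested, 15.5% were higher and 15.6% lower, and the limit of the count filter given above holds for both classes. The difference between these classes was not tested, nor was either class against those shares. Kcnj15 (ENSMUSG00000062609, chromosome 16, 95257558 to 95300260, plus strand), an inward rectifier of kidney and stomach epithelia, stood at 31.8, 33.9 and 41.1 CPM in placode-enriched libraries, against 48.1, 55.0 and 64.6 CPM in IFE ones. The fractions were separate, and the log2 fold change was -0.66 ± 0.09 (adjusted p = 6.61e-05 by edgeR). Kcnj3 (ENSMUSG00000026824, chromosome 2, 55435970 to 55598145, plus strand), a rectifier opened by G proteins, averaged 0.801 ± 0.625 CPM in placode-enriched against 4.31 ± 1.30 CPM in IFE cells, at -2.76 ± 0.61 (adjusted p = 0.00349 by edgeR). Exons of both genes overlap a gene on the opposite strand, Gm49643 for Kcnj15 and Gm26794 for Kcnj3. No placode-enriched library reached the lowest IFE library for Kcnj3. Kcnj13, in contrast, averaged 1.39 ± 0.491 CPM in placode-enriched against 0.284 ± 0.149 CPM in IFE cells, at 2.32 ± 0.45 (adjusted p = 0.00137 by edgeR). It overlaps exons of the abundant gene Gigyf2 on the opposite strand, which averaged 197 ± 13.3 CPM in placode-enriched against 189.8 ± 7.51 CPM in IFE cells (edgeR adjusted p = 0.589). Kcnj2, the strong inward rectifier of muscle, missed the threshold at -1.61 ± 0.58 (adjusted p = 0.0515 by edgeR), and was called without pair 3 or 6 (edgeR adjusted p = 0.0354 and 0.0331). On all pairs it was called lower by DESeq2 (adjusted p = 0.00672) and by limma-voom (adjusted p = 0.0459).

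All 5 tested leak channel genes had a log2 fold change below 0, and 1 was called lower. Of all genes tested, 15.6% were lower, and their median log2 fold change was -0.02. The 7 other leak channel genes in the count table were not tested. Kcnk6 (ENSMUSG00000046410, chromosome 7, 29221926 to 29232515, minus strand), a weak inward-rectifying leak channel of the TWIK group, stood at 2.44, 2.99 and 6.76 CPM in placode-enriched libraries, against 8.13, 10.7 and 13.9 CPM in IFE ones. The highest placode-enriched library, pair 7, stayed under the lowest IFE library, and the log2 fold change was -1.69 ± 0.16 (adjusted p = 2.44e-06 by edgeR). Kcnk1, the first TWIK channel, averaged 20.5 ± 1.497 CPM in placode-enriched against 22.2 ± 1.49 CPM in IFE cells, and at -0.11 ± 0.08 (adjusted p = 0.348 by edgeR) it did not pass. Kcnk2, Kcnk4 and Kcnk5 had log2 fold changes of -0.37, -0.22 and -0.26 and did not pass (edgeR adjusted p = 0.195, 0.695 and 0.409).

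**Figure D4:**
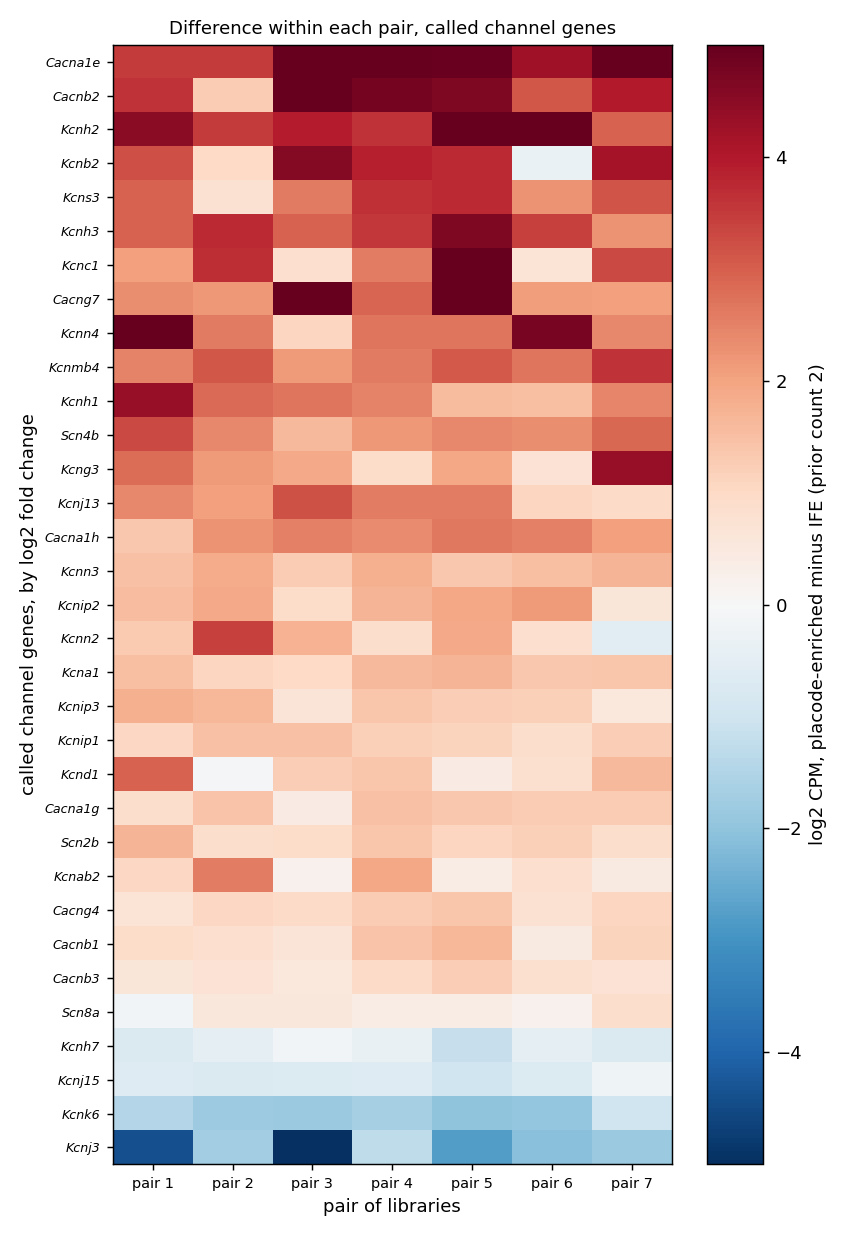
Difference in log2 CPM, placode-enriched minus IFE, within each of 7 pairs (columns) for 33 of the 34 called channel genes (rows, ordered by log2 fold change); red is higher and blue lower in the placode-enriched library, and colours saturate at 5. Of these rows, 29 have a single sign throughout, and Kcnb2, Kcnn2, Kcnd1 and Scn8a have 1 pair of the opposite sign.

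Levels of different genes were compared as mean CPM per kilobase of exon, and ranked by the mean over all 14 libraries. By that rank Cacnb3 came first, at 25.9 in placode-enriched and 14.8 in IFE libraries, followed by Kcnip1 at 18.9 in placode-enriched and 8.30 in IFE libraries. Both encode accessory proteins. Kcnk1, a pore gene that did not pass the test, came next at 9.17 in placode-enriched and 9.93 in IFE libraries, and Kcnmb4 followed at 14.7 in placode-enriched and 2.11 in IFE libraries. The order differed by fraction: Kcnmb4 stood above Kcnk1 in placode-enriched libraries, and Kcnk1 and Kcnj15 stood above Kcnip1 in IFE libraries. Kcnj15 (5.58 in placode-enriched and 8.82 in IFE libraries), Cacng4 (6.64 in placode-enriched and 3.21 in IFE libraries) and Kcnh7 (3.42 in placode-enriched and 5.10 in IFE libraries) came after them. In sums per kilobase, accessory subunits of calcium, sodium and voltage-gated potassium channels, which leave out the Kcnmb genes, stood at 66.6 in placode-enriched and 33.6 in IFE libraries, and voltage-gated pore subunits at 27.9 in placode-enriched and 16.3 in IFE libraries. Kcnmb4 thus exceeded its pore gene Kcnma1 (0.376 in placode-enriched and 0.526 in IFE libraries) per kilobase in both fractions. Kcnip1 likewise stood above Kcnd1 (0.826 in placode-enriched and 0.370 in IFE libraries), Kcnd2 (0.333 in placode-enriched and 0.186 in IFE libraries) and Kcnd3 (0.0383 in placode-enriched and 0.0168 in IFE libraries). The Kir and K2P genes summed to 19.4 in placode-enriched and 25.6 in IFE libraries.

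**Figure D5:**
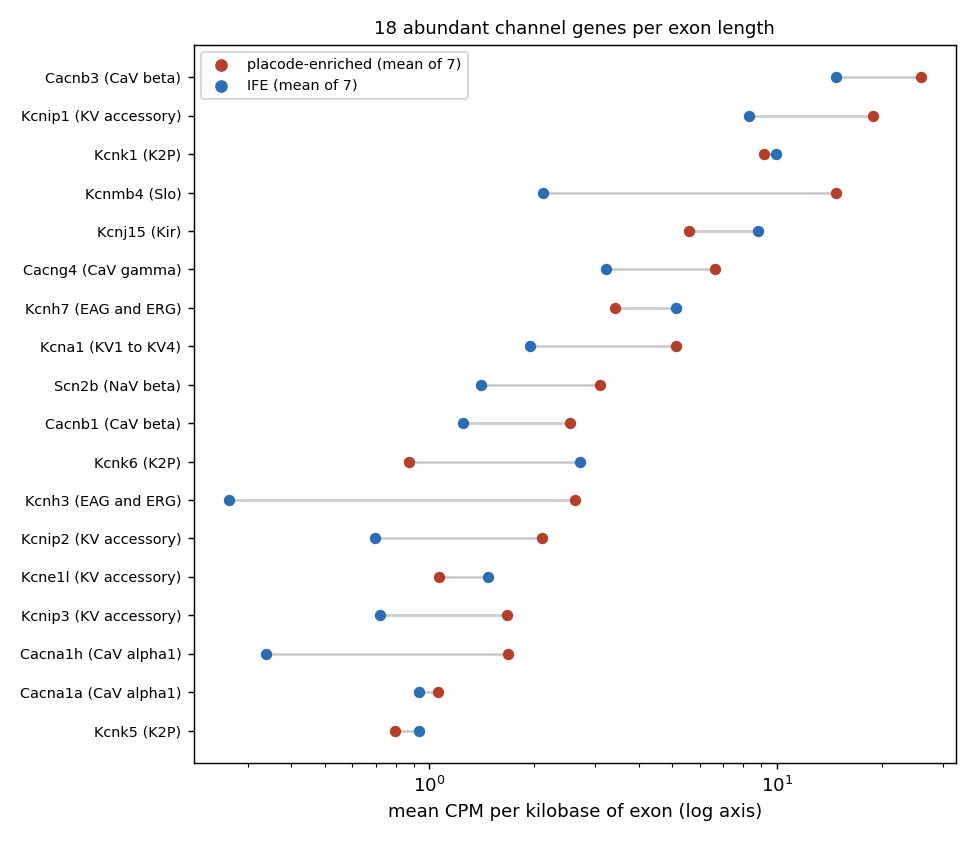
Mean CPM per kilobase of exon (horizontal log axis) of 18 of the 20 channel genes highest by this measure, in placode-enriched (red) and IFE (blue) libraries, each the mean of 7. Genes are ordered by the mean over all 14 libraries, Cacnb3 and Kcnip1 first, and the widest gaps among those shown belong to Kcnh3, Kcnmb4 and Cacna1h.

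The 65 untested genes averaged under 0.5 CPM in both fractions in 63 cases, and the highest, Cacng8, reached 0.784 CPM. Without the filter, Cacng8 and Kcnh8, an ELK channel, were called higher and Kcna2, a Shaker-type channel, lower (edgeR adjusted p = 0.00645 for Kcnh8 and 0.0107 for Kcna2). Kcnh8 averaged 0.439 ± 0.299 CPM in placode-enriched against 0.0314 ± 0.0726 CPM in IFE cells and Kcna2 0.0446 ± 0.118 CPM in placode-enriched against 0.406 ± 0.310 CPM in IFE cells. The other 62 untested genes were not called without the filter.

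The upstream sequences of 4 channel genes are shown to set the members of both directions beside each other: Kcnh2 and Kcnip2 (higher) and Kcnj15 and Kcnh7 (lower). They are those of the 13 genes plotted by library with a single RefSeq start whose 250 bases upstream touch no annotated exon. Each runs 5′ to 3′ on the gene's strand and ends at the base before the start, from RefSeq on GRCm38.p6, and CG dinucleotides are in capitals. The windows are chr5:24329592-24329841 (minus strand, inside the GENCODE span of Kcnh2, since the RefSeq start is that of a shorter transcript), chr19:45816064-45816313 (minus strand), chr16:95257308-95257557 (plus strand) and chr2:63184288-63184537 (minus strand).
Kcnh2: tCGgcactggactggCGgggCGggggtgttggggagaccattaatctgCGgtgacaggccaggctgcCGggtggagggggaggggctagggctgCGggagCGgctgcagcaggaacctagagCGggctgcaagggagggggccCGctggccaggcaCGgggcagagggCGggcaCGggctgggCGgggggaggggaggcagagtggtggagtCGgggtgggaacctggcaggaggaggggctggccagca
Kcnip2: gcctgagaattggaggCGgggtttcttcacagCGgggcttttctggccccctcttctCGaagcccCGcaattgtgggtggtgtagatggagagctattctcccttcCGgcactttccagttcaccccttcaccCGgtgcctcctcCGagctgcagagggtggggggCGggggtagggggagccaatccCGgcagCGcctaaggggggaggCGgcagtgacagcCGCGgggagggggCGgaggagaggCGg
Kcnj15: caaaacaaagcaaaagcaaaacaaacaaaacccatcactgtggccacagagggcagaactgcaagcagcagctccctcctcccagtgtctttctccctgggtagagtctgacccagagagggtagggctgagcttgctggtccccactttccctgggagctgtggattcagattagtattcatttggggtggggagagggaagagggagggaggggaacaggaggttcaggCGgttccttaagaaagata
Kcnh7: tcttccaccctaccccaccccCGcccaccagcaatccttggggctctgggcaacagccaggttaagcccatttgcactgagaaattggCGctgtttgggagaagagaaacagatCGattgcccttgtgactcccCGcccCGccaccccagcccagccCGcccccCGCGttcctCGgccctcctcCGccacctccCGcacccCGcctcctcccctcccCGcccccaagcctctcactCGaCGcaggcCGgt
Kcnh2, Kcnip2 and Kcnh7 held 14, 15 and 16 CG dinucleotides in these 250 bases, with a GC content of 73.6%, 66.8% and 67.6%. Kcnj15 held 1, with 53.2% GC. The median over 32851 RefSeq windows of all genes was 6 CG dinucleotides, and over 123 windows of 91 channel genes it was 8. A search of both strands for 6 motifs found none of them in these 4 windows. The TCF/LEF motif CTTTGAT occurs in 3.21% of all windows of this length. The NF-kB motif, searched with 2 free positions, occurs in 1.41% of them, the GLI motif GACCACCCA in 0.225% and the GRHL motif AACNGGTT in 1.79%. The AP-1 motif TGANTCA is found in 6.75% of all windows. For the TATA box, searched as TATAAA, the share is 12.4%. Of the 32 windows of 21 genes called higher, 1 held the AP-1 motif, 1 the TATA box and 0 any of the other motifs.

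Other genes of ion transport were counted from 5 lists, by the same edgeR test. The counts stand beside 15.5% higher and 15.6% lower over all 15382 genes tested. A list whose counts lie near these shares shows nothing particular to it, and no list was tested as a set. Among proteins that bind or regulate these channels, 5 of 18 tested genes rose, 2 fell and 11 stayed short of the threshold (median log2 fold change 0.07). Cabp1, a calcium sensor that modulates calcium channels, rose by 4.59 ± 0.22, Dpp10, a partner of Kcnd channels, by 4.45 ± 0.68, and Rrad, an inhibitor of calcium channels, by 3.31 ± 0.50. Calm2, which encodes calmodulin, rose by 0.45 ± 0.07. Among HCN, TRP, Piezo, ENaC and related cation channels, 4 of 27 tested genes rose, 6 fell and 17 stayed short of the threshold (median log2 fold change 0.14). The leak sodium channel gene Nalcn (-2.26 ± 0.17), the epithelial sodium channel gene Scnn1a (-2.60 ± 0.19) and Mcoln3 (-3.80 ± 0.22) fell, and Trpm3 rose (1.03 ± 0.11). Among chloride channels, 8 of 20 tested genes rose, 7 fell and 5 stayed short of the threshold (median log2 fold change 0.01). Ano7 (-4.75 ± 0.33) and Cftr (-3.56 ± 0.47) fell, and Lrrc8c (0.62 ± 0.09) and Lrrc8d (0.79 ± 0.08), subunits of volume-regulated anion channels, rose.

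Among genes of calcium stores and calcium pumps, 4 of 22 tested genes rose, 10 fell and 8 stayed short of the threshold (median log2 fold change -0.17). Orai2, a store-operated channel subunit (2.51 ± 0.36), Slc8a2, a sodium-calcium exchanger (2.04 ± 0.20), and the store pump gene Atp2a3 (2.30 ± 0.38) rose, whereas Atp2b4, a plasma membrane calcium pump, fell (-0.94 ± 0.06). Among sodium and potassium pumps and cation-chloride cotransporters, 5 of 16 tested genes rose, 2 fell and 9 stayed short of the threshold (median log2 fold change 0.27). Atp1b1 (0.996 ± 0.14), Fxyd6 (2.19 ± 0.21), Fxyd7 (3.36 ± 0.61) and Slc12a7 (0.94 ± 0.09) rose.

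Markers of other excitable or channel-rich cells moved in part with the fractions. Of 12 Schwann cell and neuron markers in the table, 7 were tested, 1 was higher (Snap25, at 1.02 CPM in placode-enriched against 0.118 CPM in IFE cells) and 4 were lower. Their summed level was 82.4 to 112 CPM in placode-enriched against 146 to 158 CPM in IFE cells, most of it Erbb3. The neuronal markers Elavl3, Elavl4, Stmn2, Gap43 and Nefl stayed under 1 CPM in both fractions, whereas Tubb3 did not. All 8 tested melanoblast markers were lower, with sums of 8.31 to 14.6 CPM in placode-enriched against 125 to 222 CPM in IFE cells. Skeletal muscle markers summed to 1.005 to 3.53 CPM in placode-enriched against 2.83 to 4.25 CPM in IFE cells, with 7 of 8 under 1 CPM in both fractions, Myod1 and Acta1 among them. Merkel cell markers summed to 7.41 to 15.0 CPM in placode-enriched against 7.51 to 12.5 CPM in IFE cells. Fibroblast markers summed to 1103 to 1895 CPM in placode-enriched against 918 to 1255 CPM in IFE cells. Pdgfra and Twist2, 2 of the 8 fibroblast markers, stayed under 1 CPM in both fractions. Endothelial markers summed to 1.33 to 3.84 CPM in placode-enriched against 0.214 to 1.43 CPM in IFE cells. Immune markers summed to 32.2 to 47.4 CPM in placode-enriched against 1.67 to 5.92 CPM in IFE cells, nearly all of it Cd74, with Ptprc under 1 CPM, and erythroid markers stayed under 1 CPM. Suprabasal markers, all 11 lower, summed to 221 to 486 CPM in placode-enriched against 3023 to 4672 CPM in IFE cells, periderm markers to 24.4 to 43.7 CPM in placode-enriched against 95.1 to 114 CPM in IFE cells, basal markers to 5422 to 7178 CPM in placode-enriched against 6182 to 7815 CPM in IFE cells, and placode markers, all 12 higher, to 1794 to 2288 CPM in placode-enriched against 419 to 483 CPM in IFE cells. Calls were mixed within some lists. Of 7 tested periderm markers, 2 were higher and 5 lower, and of 7 tested basal markers, 3 were higher and 3 lower. Of 7 tested fibroblast markers, 3 were higher and 1 lower, and of 2 tested Merkel cell markers, 1 was higher and 1 lower. The shares over all genes tested were 15.5% higher and 15.6% lower. The part of these cell types in the channel results was not tested.

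Pairs 5 to 7, whose codes begin with 27-7, were also analysed apart from pairs 1 to 4. In the 27-7 pairs, 21 of 64 tested channel genes were higher and 4 lower, beside 7.81% and 7.04% of all genes tested there. In the other pairs, 24 of 62 were higher and 4 lower, beside 9.99% and 9.94% of all genes. Whether these 3 pairs came from 1 litter or day is not stated in the labels.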

How the data were processed

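RNA of 14 libraries was measured as described in the report. The authors deposited whole-number read counts for each Ensembl gene, which show no scaling. The submitters' processing notes list HTSeq, bcl2fastq (2.17.1.14), STAR (version given as 1.5), MultiQC, FastQC and Trimmomatic, and the builds GRCm38 and mm10; no release of the annotation, strand setting or handling of duplicates is stated in the sources used here. Amplified reads are not independent molecules. Symbols, biotypes, exon lengths and overlaps came from GENCODE M21 (GRCm38), which matched 25949 of 26252 identifiers. No column was left unused.

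edgeR 4.0.16 (R 4.3.3, limma 3.58.1) was run on the whole table: filterByExpr left 15382 genes, TMM scaled the libraries, and robust quasi-likelihood F tests compared placode-enriched with IFE with the pair as a block. Benjamini-Hochberg adjustment ran over all genes tested, with a threshold of 0.05. Log2 fold changes use a prior count of 0.125 and approximate standard errors (coefficient over the square root of F); differences per pair use a prior count of 2. The pair comes from the design text, which names pairs of populations, and from shared title codes. Deviations from the fraction means correlated within pairs by 0.0548 on average (-0.132 to 0.195); it exceeded 0.1 in 2 pairs. The labels describe pools of littermates sorted into both fractions, and p-values speak only to variation among these pools. The channel genes, lists and tests were chosen with earlier results of these data known. Genes were named by a rule: called members with the same sign in 7 pairs and at least 5 CPM in the higher fraction, the 8 highest per kilobase, the highest of each subfamily and up to 4 called members of each transport list. Other called or nearly called members, members overlapping another gene, marker genes and Kcna2 and Kcnh8 were named after their values were seen. Values of some channel genes are not reported here, although the counts include them. The alternatives left out the pair block, or used DESeq2 size factors, library size only, no filter, 1 CPM in 7 libraries, DESeq2 1.42.0, limma-voom, a threshold of 0.01, each pair left out and each set of pairs alone. Leaving out genes that overlap another was chosen after seeing the data. Python 3.11.15, pandas 2.3.3, numpy 2.4.6 and matplotlib 3.10.9 made tables and figures.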

Additional observations from a re-analysis of the deposited data

Results flagged for a closer look

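Among 86 sets of 7 values (43 channel genes in 2 fractions), 5 held a library that lay apart from the others by Dixon's 95% criterion. Chance flags about 1 in 20 such sets. Cacnb1 stood at 7.92 CPM in the IFE library of pair 6, against 4.84 to 6.10 CPM in the other 6 libraries of that fraction. Cacnb2 stood at 0.485 CPM in the IFE library of pair 2, against 0 to 0.150 CPM in the other 6 libraries of that fraction. Kcnc1 stood at 2.08 CPM in the placode-enriched library of pair 5, against 0.362 to 0.895 CPM in the other 6 libraries of that fraction. Kcnk6 stood at 6.76 CPM in the placode-enriched library of pair 7, against 2.44 to 3.98 CPM in the other 6 libraries of that fraction. Kcnmb4 stood at 65.9 CPM in the placode-enriched library of pair 7, against 42.9 to 52.2 CPM in the other 6 libraries of that fraction. Without the pair concerned, Cacnb1, Cacnb2, Kcnc1, Kcnk6 and Kcnmb4 all kept their calls (edgeR adjusted p under 0.05).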

How the results depend on the processing

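The 30 higher and 4 lower channel genes became 31 and 5 without the pair block, 31 and 5 without a filter, 25 and 4 with 1 CPM in 7 libraries, 33 and 6 with DESeq2, 30 and 5 with limma-voom, and 24 and 4 at a threshold of 0.01; DESeq2 size factors and library size only gave 30 and 4. Leaving out each pair in turn gave 27 to 30 higher and 4 to 6 lower, and 3953 to 5229 of all genes called (4786 with all pairs). Over all genes, 2331 were called in the 27-7 pairs alone and 3087 in the other pairs alone, with fewer libraries. Without members whose exons overlap another gene, 22 channel genes were higher and 1, Kcnk6, was lower. Each of the 34 called genes kept its direction in those of the 16 other fits in which it was tested, and 24 kept their call there. Kcns3, among these 24, was tested in only 13 of the 16 fits, so its call is less secure than that count makes it. Kcnab2, Kcnb2, Kcnc1, Kcnd1, Kcng3, Kcnh1, Kcnip3, Kcnj13, Kcnn2 and Scn8a lost their call in 1 to 10 of the 16 fits. Of these, Kcnab2, Kcnn2 and Scn8a did so when a single pair was left out. Kcnb2, Kcnc1, Kcnd1, Kcng3, Kcnh1, Kcnip3 and Kcnj13 did so only in a set of 3 or 4 pairs analysed alone. The cause was not tested. The replicate block changed the call of Kcnn2, Cacna1b, Kcnma1 and Kcnu1 and of no other named channel gene. Genes under about 1 CPM rest on few reads in a library, which limits the precision of their fold changes.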
